A study of Mus musculus with 12 samples.

Results

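The 37 genes described here encode the machinery by which a hormone granule is docked, primed and fused with the plasma membrane: SNARE proteins, synaptotagmins, Rab GTPases with their effectors, and priming factors. They were listed by name, and all 37 are rows of the per-sample count files, among 24421 genes in all. The low-count filter left 35 of the 37 for testing, beside 13583 genes overall. Rims1 and Cplx1 did not pass it.

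The libraries were made from total RNA of pancreatic islets of mice that had been fed a high-fat diet over 6 weeks. Of the 12 libraries, 6 (called BKO) came from Il22ra1βKO mice, named for a deletion of Il22ra1, a subunit of the interleukin-22 receptor, in β cells. The other 6 came from Ins2Cre mice (Cre), the controls, which are named for a Cre recombinase under the insulin 2 promoter. The question put to the data was how signalling through this receptor bears on the transcripts of the islet, and here the comparison is read for exocytosis genes. The labels give no test of how complete the deletion was or of Cre activity outside β cells. They give no strain, sex or age and do not say whether a library is 1 animal, and a p-value here measures no more than the scatter among libraries, which may be technical. Where a pair of values stands without names, the first is BKO and the second Cre, each as mean ± SD (n = 6), and ± beside a fold change is its standard error.

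Insulin leaves the β cell by regulated exocytosis. Granules are tethered by Rab GTPases and their effectors, made ready by priming factors, and fused when a vesicle SNARE zips with syntaxin and SNAP-25 family proteins after a synaptotagmin or a Doc2 protein has bound calcium. Tomosyns hold SNARE assembly in check, complexins bind the SNARE complex, and NSF with its adaptor alpha-SNAP takes that complex apart for reuse. The same machinery serves α and δ cells, and many of its parts are shared with neurons.

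Gene reads per library ranged from 10356093 to 11902217 (BKO) and from 11444273 to 12397139 (Cre), a difference with a two-sided exact permutation p of 0.0152, and the machinery took 0.568 ± 0.0120% of them in BKO against 0.595 ± 0.0141% in Cre (SD, n = 6 each). In Cre-1, 27.3% of all counted reads were in the low alignment quality line, against 16.7% to 22.2% in the other libraries. Il22ra1 itself had between 1 and 5 reads in every library (13 in all in BKO and 16 in Cre), so the genotype could not be read from it. The labelled tissue was checked by its markers, and the 10 β-cell markers summed to between 97882 and 156086 CPM (gene reads scaled to a common library total with TMM factors) in BKO, against 121023 to 152274 CPM in Cre. The mean log2 level of those β-cell markers was 10.03 ± 0.222 (BKO) against 10.24 ± 0.0986 (Cre), with p = 0.0584 by a two-sided exact permutation test (0.0974 after adjustment over the 10 marker lists), with 9 of 10 fold changes negative. The 10 pan-endocrine markers were at 10.06 ± 0.0451 and 10.07 ± 0.0564 (exact permutation p = 0.786). Markers of α, δ and PP cells were at 8.002 ± 0.279 and 7.62 ± 0.232 (exact p = 0.0281, adjusted 0.0866) and summed to between 17978 and 36020 CPM in BKO and 13572 and 21495 CPM in Cre. Endothelial markers were at 5.65 ± 0.173 and 5.23 ± 0.184 (exact p = 0.00433, adjusted 0.0433), all 10 with a positive fold change. Neuron and Schwann cell markers, of which 7 of 10 passed the filter, were at 2.31 ± 0.121 and 2.12 ± 0.148 (exact p = 0.0411, adjusted 0.0866). Of those 7, 3 fold changes were positive and 4 negative, with a median of -0.025. The score, like that of every list, also takes in the genes below the filter. So does the sum of this list, which was between 142 and 158 CPM in BKO and 139 and 155 CPM in Cre. Of the other lists, the score of the acinar markers was higher in BKO by 0.89 (exact permutation p = 0.190, adjusted 0.238), with all 12 tested fold changes positive. Duct markers were higher by 0.45 (exact p = 0.0260, adjusted 0.0866), with 5 of 8 positive, and stellate and mesenchymal markers by 0.55 (exact p = 0.0433, adjusted 0.0866), with 9 of 10 positive. The macrophage score differed by -0.21 (exact p = 0.160, adjusted 0.229), with 7 of 8 negative, and the red blood cell score by 0.038 (exact p = 0.377, adjusted 0.418), with none of its genes passing the filter. The part of these marker differences in the values below was not tested, and in bulk tissue fewer cells of a type and less RNA per cell cannot be told apart.

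No gene of the exocytosis machinery passed the test between genotypes, and the differences were small. The largest were those of Rab3a, Syt5 and Sytl4, with fitted ratios of BKO to Cre of 0.844, 0.867 and 0.868, and of Unc13a, with a ratio of 1.14. The quasi-likelihood test of edgeR called 0 of 35 members and 0% of the 13583 genes tested at an adjusted p under 0.05 (Benjamini-Hochberg over all genes). DESeq2 called 0 members and 1.64% of all genes, and limma-voom called 0 members and 0 genes over all. At an unadjusted p under 0.05, 5 members were lower (Rab3a, Cadps, Syt13, Nsf and Syt5), or 14.3% of those tested, against 4.66% of all genes tested. In the same way 0 members were higher, against 8.7% of all genes. These shares are not on equal terms, since the median standard error was 0.063 for the members and 0.089 over all genes tested. With a smaller standard error, a smaller difference reaches the same p. The members' median absolute log2 fold change was 0.073, against 0.081 over all genes. The list was also chosen with earlier results of these data known. The median log2 fold change of the members (BKO against Cre) was -0.054, against 0.0077 over all genes tested, and 22 of 35 members were negative (62.9%), against 47.2% of all genes. In 4 members (Rab3a, Syt13, Nsf and Vamp2) all 6 BKO libraries lay below the Cre mean, which is 11.4% of the members against 5.47% of all genes. No member had all 6 above it, against 7.05% of all genes. The 95% intervals of the 35 fold changes ran from -0.42 (Rab3a) to 0.46 (Doc2b) on the log2 scale. No member had groups that did not overlap, which held for 0.177% of all genes (lower) and 0.331% (higher).

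**Figure D1:**
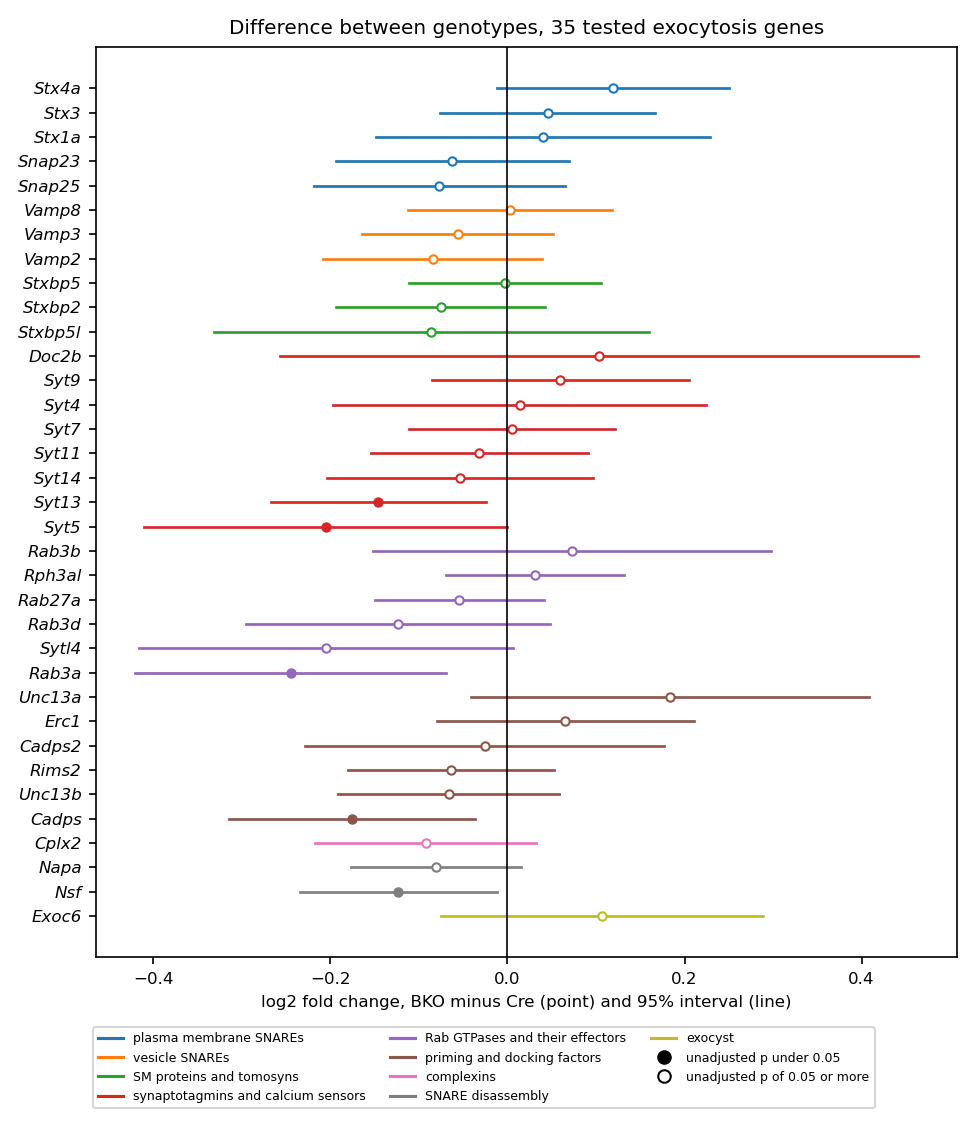
Log2 fold change of BKO against Cre (points) with its 95% interval (lines) for the 35 tested exocytosis genes, coloured by role; filled points have an unadjusted p under 0.05. The 5 filled points all lie left of 0, and no gene passed after adjustment over all genes.

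Leaving out 1 library moved the count of members at an unadjusted p under 0.05. Without Cre-1, the library with the most low-quality reads, 9 members were lower and 2 higher, against 8.35% and 8.75% of all genes in that fit. Vamp2, Rab3d, Cplx2 and Napa joined the 5 lower genes, and Stx4a and Exoc6 were the 2 higher. Without BKO-4, 6 members were lower and 0 higher, against 7.02% and 10.2% of all genes. Without Cre-4 the lower ones were 3, namely Rab3a, Syt13 and Cadps, against 3.74% of all genes. None of these fits called a member after adjustment, nor did the one without Cre-5, which called 0.807% of all genes. A fit without both BKO-4 and Cre-1 did call members. That pair was chosen after seeing the data, because their values went against those of their groups, so the fit is no support for a difference. It called Rab3a (log2 fold change -0.33, adjusted p = 0.0407), Syt5 (-0.34, 0.0235), Syt13 (-0.22, 0.0211) and Nsf (-0.19, 0.0487) by edgeR, all with negative values, among 2.34% of all genes called lower and 1.57% called higher.

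Sequences upstream of the 3 genes at an unadjusted p under 0.05 that have an entry in the RefSeq promoter table (build GRCm38.p6) are printed here because their base composition is compared with all promoters. Each is written 5′ to 3′ on the gene's strand and ends at the last base before the annotated gene, with CpG dinucleotides in capitals. No binding or methylation was measured here.
Rab3a, chr8:70754453-70754678, plus strand: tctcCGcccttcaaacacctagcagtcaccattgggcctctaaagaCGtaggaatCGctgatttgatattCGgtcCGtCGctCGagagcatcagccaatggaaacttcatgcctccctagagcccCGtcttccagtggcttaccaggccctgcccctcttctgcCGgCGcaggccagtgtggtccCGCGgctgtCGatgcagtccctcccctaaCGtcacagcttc
Cadps, chr14:12823080-12823329, minus strand: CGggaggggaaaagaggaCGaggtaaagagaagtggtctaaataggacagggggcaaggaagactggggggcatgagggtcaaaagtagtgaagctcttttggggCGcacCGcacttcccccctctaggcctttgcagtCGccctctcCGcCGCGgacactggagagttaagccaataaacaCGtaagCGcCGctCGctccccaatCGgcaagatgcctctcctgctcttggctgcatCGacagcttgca
Nsf, chr11:103954057-103954306, minus strand: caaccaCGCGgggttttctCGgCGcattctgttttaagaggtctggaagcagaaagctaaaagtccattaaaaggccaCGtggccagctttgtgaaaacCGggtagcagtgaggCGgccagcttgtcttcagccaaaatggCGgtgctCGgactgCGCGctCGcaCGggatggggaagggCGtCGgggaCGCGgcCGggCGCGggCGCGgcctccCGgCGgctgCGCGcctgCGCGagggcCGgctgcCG
The sequences held 14 CpG in 226 bases (Rab3a), 14 in 250 bases (Cadps) and 30 in 250 bases (Nsf), at 58.8%, 58.0% and 66.0% G and C. Promoter windows were found for 26 of the 35 tested members, 28 windows in all, and for 10363 of all tested genes. In the 250 bases before the RefSeq start, the members' median was 16 CpG and 61.4% G and C, against 15 CpG and 59.6% in all windows of tested genes. These windows were not cut at the annotated gene, as the printed sequence of Rab3a was. The GC box GGGCGG, searched on both strands, was in 18 member windows (64.3%) and in 56.5% of all windows. The cAMP response element TGACGTCA was in 0 member windows and in 2.65% of all, and the TATA box TATAAA in 2 (7.14%), against 6.58%.

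Transcript levels spanned several orders of magnitude. CPM per kilobase of merged exon was used to compare genes. Its length merges all annotated exons of a gene, 22746 bases for Unc13b against a median of 4293 in the tested members. A gene whose transcripts in the islet are shorter than that is set too low. On this scale the median of the 35 tested members was 15.7 in Cre, against 5.85 over the 13090 tested genes with a single GENCODE entry. The members' median percentile was 77.5. Syt13, a synaptotagmin that lacks the residues for calcium binding, was the highest at 320 ± 22.7 CPM per kilobase in Cre (SD, n = 6), a level at the 99.5th percentile. Cplx2, a complexin, followed at 139.0 ± 8.02 and Syt4 at 91.2 ± 8.59. Rab27a was at 87.9 ± 1.94, Sytl4 at 70.3 ± 4.30 and Syt7 at 60.7 ± 4.14. At the low end were Cadps2 at 1.44 ± 0.171 and the calcium sensor Doc2b at 0.754 ± 0.140. In this order of levels the ranges of Syt13 and Cplx2 over the 6 Cre libraries overlapped neither each other nor those of their neighbours, while 22 of the 34 neighbouring pairs of tested members did overlap. Syt4 and Rab27a, for example, could not be placed in order.

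**Figure D2:**
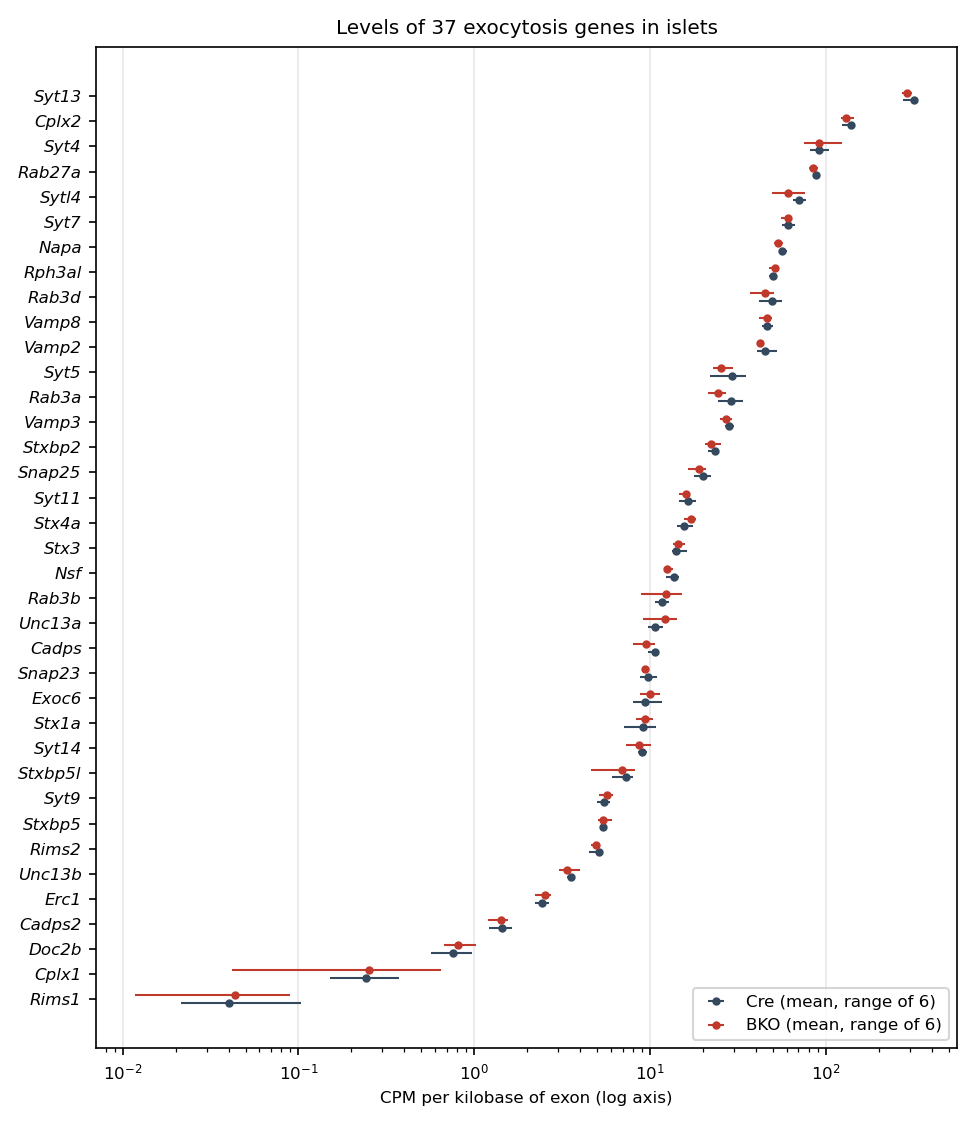
Level of each of the 37 genes in CPM per kilobase of exon on a log axis, as the mean (point) and range (line) of 6 Cre and 6 BKO libraries. Syt13 stands highest at 320 in Cre, and the ranges of Cre and BKO overlap for every gene.

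Among the SNAREs of the plasma membrane, 3 fold changes were positive and 2 negative, with 0 of 5 at an unadjusted p under 0.05. Stx1a, the plasma membrane syntaxin of regulated secretion, was between 22.1 and 27.6 CPM in BKO (median 25.5) and between 19.0 and 28.9 CPM in Cre (median 24.0). Its log2 fold change was 0.040 ± 0.090 (SE), with the BKO range inside that of Cre. Stx3, a syntaxin also found on granules, ranged from 77.7 to 90.1 CPM in BKO and 76.0 to 92.4 CPM in Cre. Stx4a, which encodes syntaxin 4, had the smallest p of the group. It was between 36.8 and 43.3 CPM in BKO (median 40.4) and between 33.5 and 41.4 CPM in Cre (median 37.4). The fold change was 0.12 ± 0.062 (edgeR adjusted p = 0.430), and BKO-1 and BKO-5 lay above the highest Cre library, Cre-1. Snap25, the partner of syntaxin in neurons and endocrine cells, was between 112 and 141 CPM in BKO (median 133) and between 121 and 151 CPM in Cre (median 134), with BKO-2 and BKO-5 below every Cre library. Snap23, its widely expressed relative, was at 40.3 ± 1.40 CPM in BKO against 42.1 ± 3.78 CPM in Cre (SD, n = 6 each). Per kilobase Snap25 stood at 19.9 and Snap23 at 9.80 in Cre.

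Of the vesicle SNAREs, which sit on the granule and zip with syntaxin, 2 of 3 fold changes were negative. Vamp2, the main SNARE of insulin granules, was tightly grouped in BKO, from 157 to 167 CPM with a median of 162, and more scattered in Cre, from 155 to 201 CPM with a median of 169. Its log2 fold change was -0.084 ± 0.059 (edgeR adjusted p = 0.593), and the highest value was that of Cre-6. Vamp3, or cellubrevin, also a SNARE of recycling vesicles, ranged from 72.8 to 84.2 CPM in BKO and from 77.5 to 86.4 CPM in Cre, with 3 BKO libraries below the lowest Cre library. Vamp8, which serves granules that fuse on arrival, was at 108 ± 6.64 and 108 ± 6.55 CPM. Its log2 fold change of 0.0025 had a 95% interval of -0.11 to 0.12.

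The SM protein Stxbp2, which chaperones syntaxin, was at 92.2 ± 7.29 CPM (BKO) against 97.2 ± 4.62 CPM (Cre), a log2 fold change of -0.075 ± 0.056 (edgeR adjusted p = 0.621), the smallest p of its group. The tomosyns, which occupy syntaxin and so inhibit fusion, did not pass either. Stxbp5 was at 89.1 ± 6.61 and 89.3 ± 2.04 CPM. Stxbp5l ranged from 39.4 CPM in BKO-5, the lowest of all 12 libraries, to 70.3 CPM in BKO-6, and from 52.0 to 68.5 CPM in Cre. The Cre range of Stxbp5l thus lay inside that of BKO.

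Of the 8 synaptotagmins and calcium sensors, 4 fold changes were negative and 4 positive, and Syt13 and Syt5 were lower at an unadjusted p under 0.05. Syt13 was between 1027 and 1166 CPM in BKO (median 1083) and between 1034 and 1258 CPM in Cre (median 1232). The other 5 Cre libraries, from 1198 CPM up, stood above every BKO library, and Cre-1 stood among the BKO libraries. Its log2 fold change was -0.15 ± 0.057 (adjusted p = 0.283 by edgeR), and without Cre-1 it was -0.20 (adjusted p = 0.0850). The mm10 position of Syt13 is chromosome 2, plus strand, 92915098 to 92956058, with no overlapping gene. Syt5, a calcium-binding synaptotagmin of dense-core granules, was between 54.4 and 70.5 CPM in BKO (median 58.6) and between 52.5 and 84.3 CPM in Cre (median 69.9). Its groups overlapped widely, since Cre-1 was the lowest of all 12 libraries and Cre-6 the highest. The fitted log2 difference was -0.21 ± 0.097 (adjusted p = 0.372 by edgeR). It was -0.29 without Cre-1 and -0.15 without Cre-6. Syt5 is found at 4539765 to 4547541 of chromosome 7 (minus strand).

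Syt7, a calcium sensor with high affinity that is needed for full glucose-stimulated insulin secretion, was between 414 and 479 CPM in BKO (median 457) and between 420 and 499 CPM in Cre (median 452). Its log2 fold change of 0.0054 had a 95% interval of -0.11 to 0.12. Syt9, another calcium sensor, was lower per kilobase, at 5.49 in Cre against 60.7 for Syt7, and was at 22.8 ± 1.37 CPM (BKO) against 21.8 ± 1.42 CPM (Cre). Syt4 ranged from 294 to 480 CPM in BKO and from 315 to 408 CPM in Cre. BKO-4 alone lay above the Cre range, at 480 CPM against 363 CPM in the next BKO library, and without BKO-4 the log2 fold change went from 0.014 to -0.088. Syt11, like Syt4 a form with altered calcium binding, was at 83.6 ± 4.82 and 85.5 ± 6.67 CPM. Syt14 was between 86.7 and 122 CPM in BKO and between 102 and 114 CPM in Cre, with 3 BKO libraries below and 1 above the Cre range. Doc2b was at 3.53 ± 0.557 and 3.29 ± 0.612 CPM, with the widest interval of the members, -0.26 to 0.46.

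Among the Rab GTPases and their effectors, which bring granules to the membrane, 4 of 6 fold changes were negative. Rab3a, a Rab of secretory vesicles needed for normal insulin release, had the smallest p of all members. It was between 47.5 and 60.6 CPM in BKO (median 54.5) and between 53.9 and 75.3 CPM in Cre (median 60.9). BKO-1, BKO-2 and BKO-6 lay below every Cre library, and Cre-4 and Cre-6, at 75.1 and 75.3 CPM, stood above the rest. It had a log2 fold change of -0.24 ± 0.083 (adjusted p = 0.222 by edgeR, rank 550 of 13583 genes). Apart from the fit without both BKO-4 and Cre-1 (-0.33), it stayed between -0.31 and -0.20 across the alternatives run, with adjusted p from 0.0984 to 0.440. Rab3a occupies 70754679 to 70758677 of chromosome 8 (plus strand), where its exons overlap those of Mpv17l2 on the opposite strand, and the labels do not say whether reads were counted by strand.

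Sytl4, granuphilin, which links Rab27a on the granule to syntaxin and docks it, split the BKO libraries. It was between 253 and 287 CPM in 4 of them and at 381 and 393 CPM in BKO-3 and BKO-1, while the Cre libraries lay between 335 and 394 CPM. This gave a log2 fold change of -0.20 ± 0.099 (adjusted p = 0.392 by edgeR). It was -0.29 without BKO-1 and -0.16 without BKO-5. Rab27a, its partner, varied little, from 312 to 349 CPM in BKO and from 328 to 351 CPM in Cre, with 3 BKO libraries below the Cre range. Rab3d was at 190 ± 21.9 and 207 ± 22.1 CPM. Rab3b ranged from 31.2 CPM in BKO-4 to 53.6 CPM in BKO-1, and from 37.9 to 45.1 CPM in Cre. Rph3al, or Noc2, an effector of Rab3 and Rab27, was at 195 ± 9.75 and 191 ± 7.06 CPM. Above the highest Cre library, at 198 CPM, lay 3 BKO libraries, of which BKO-1 was at 208 CPM.

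Of the 6 tested priming and docking factors, 4 fold changes were negative and Cadps was lower at an unadjusted p under 0.05. Cadps, or CAPS1, primes dense-core granules. It was between 121 and 161 CPM in BKO (median 148) and between 147 and 167 CPM in Cre (median 164). BKO-2, BKO-4 and BKO-5 lay below every Cre library and BKO-3 lay just above the Cre mean. The resulting log2 fold change was -0.18 ± 0.066 (adjusted p = 0.260 by edgeR), and it ranged from -0.21 to -0.15 across the alternatives run. Cadps occupies 12372563 to 12823079 of chromosome 14 (minus strand), and 6 other annotated genes lie within or across its span. Cadps2, its paralog, stood at 1.44 CPM per kilobase in Cre against 10.7 for Cadps, and was at 13.5 ± 1.20 and 13.8 ± 1.63 CPM.

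Unc13a, or Munc13-1, opens syntaxin for SNARE assembly, and it had the largest positive fold change of the members, 0.18 ± 0.11 (adjusted p = 0.494 by edgeR). BKO-1, BKO-2 and BKO-5, at 173 to 180 CPM, stood above every Cre library, while BKO-6 at 115 CPM was the lowest of all 12. The Cre libraries lay between 124 and 149 CPM. The exons of Unc13a overlap those of Colgalt1 on the opposite strand. Unc13b was at 77.01 ± 7.06 and 80.7 ± 3.51 CPM, with 5 BKO libraries below the Cre range and BKO-4, at 90.4 CPM, above it. The active zone scaffold Rims2 was at 50.9 ± 2.23 and 53.2 ± 3.29 CPM, and its partner Erc1, or ELKS, at 41.3 ± 3.50 and 39.4 ± 3.03 CPM. Rims1 stayed at the detection limit, with 1 to 7 reads per library in BKO (21 in all) and 2 to 9 in Cre (21 in all).

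Cplx2, which binds the SNARE complex, lay between 604 and 710 CPM in BKO (median 613) and between 607 and 713 CPM in Cre (median 700.1). In BKO 4 libraries were at 604 to 618 CPM and 2 at 707 and 710 CPM, and in Cre the 5 libraries other than Cre-1 were at 682 CPM or more. The fitted log2 fold change was -0.093 ± 0.059 (adjusted p = 0.547 by edgeR). Cplx1 had 36 reads in all in BKO and 38 in Cre, of which BKO-5 held 15.

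The ATPase Nsf, which pulls spent SNARE complexes apart, was between 100.1 and 113 CPM in BKO (median 102) and between 103 and 123 CPM in Cre (median 113). Among BKO, 3 libraries lay below the Cre range, and all 6 below the Cre mean. On the log2 scale the change was -0.12 ± 0.053 (adjusted p = 0.327 by edgeR). It was -0.17 without Cre-1 and -0.11 without Cre-4. Nsf occupies 103821782 to 103954056 of chromosome 11 (minus strand). Napa, its adaptor alpha-SNAP, was between 192 and 216 CPM in BKO and between 207 and 227 CPM in Cre, with 5 BKO libraries below the Cre range and BKO-5 inside it. The BKO to Cre difference on the log2 scale was -0.081 ± 0.046 (adjusted p = 0.478 by edgeR). Exoc6, a subunit of the exocyst that tethers vesicles, was at 35.6 ± 3.16 and 33.02 ± 4.62 CPM, a log2 fold change of 0.11 ± 0.086 (adjusted p = 0.659 by edgeR).

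**Figure D3:**
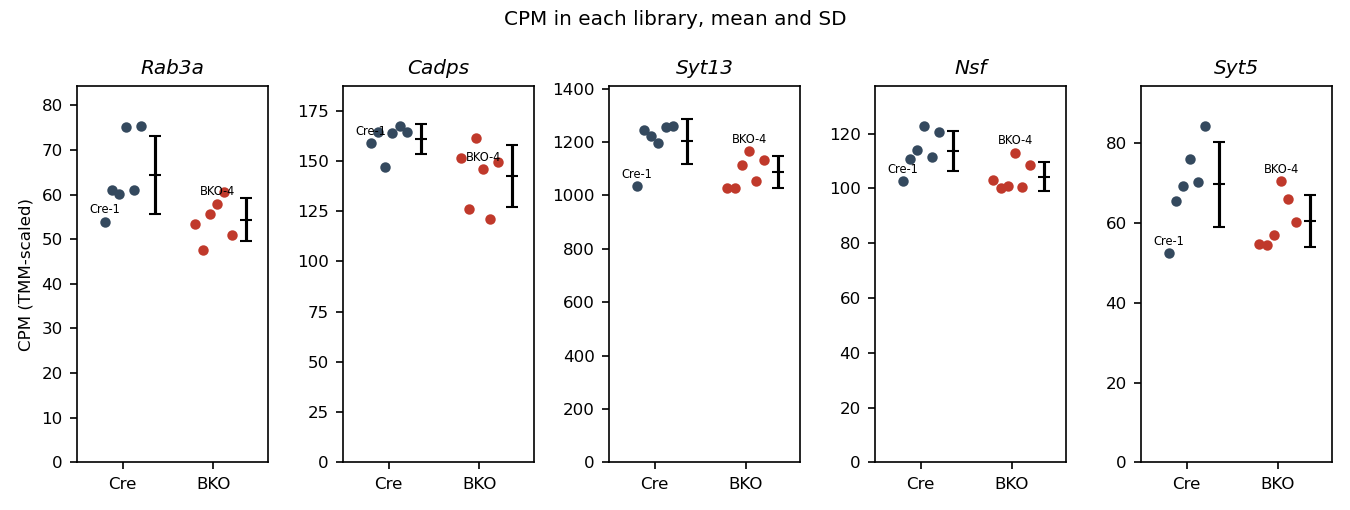
TMM-scaled CPM (axes from 0) in each of 6 Cre and 6 BKO libraries, with mean and SD, for the 5 exocytosis genes at an unadjusted p under 0.05. Cre-1 is the lowest Cre library in Rab3a, Syt13, Nsf and Syt5, and the groups overlap in each gene.

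The libraries of the genotypes overlapped also over the members as a whole, through BKO-4 and Cre-1. The median deviation of the 35 members from their mean over all libraries ran from -0.070 (BKO-2) to 0.019 (BKO-4) in BKO and from -0.015 (Cre-1) to 0.067 (Cre-6) in Cre, on the log2 scale. All BKO libraries but BKO-4 were at -0.014 or lower, and all Cre libraries but Cre-1 at 0.0059 or higher. The group means were -0.019 ± 0.029 and 0.023 ± 0.029. BKO-5 held the lowest value of all 12 libraries for 6 members and the highest for 3. Cre-4 held the highest for 6 and the lowest for 3. The spread within a group, as a coefficient of variation, was between 2.20% (Rab27a in Cre) and 19.2% (Rab3b in BKO), with medians of 7.90% in BKO and 7.10% in Cre. The SD of log2 CPM was larger in BKO for 19 of 35 members (54.3%), against 64.4% of all genes.

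**Figure D4:**
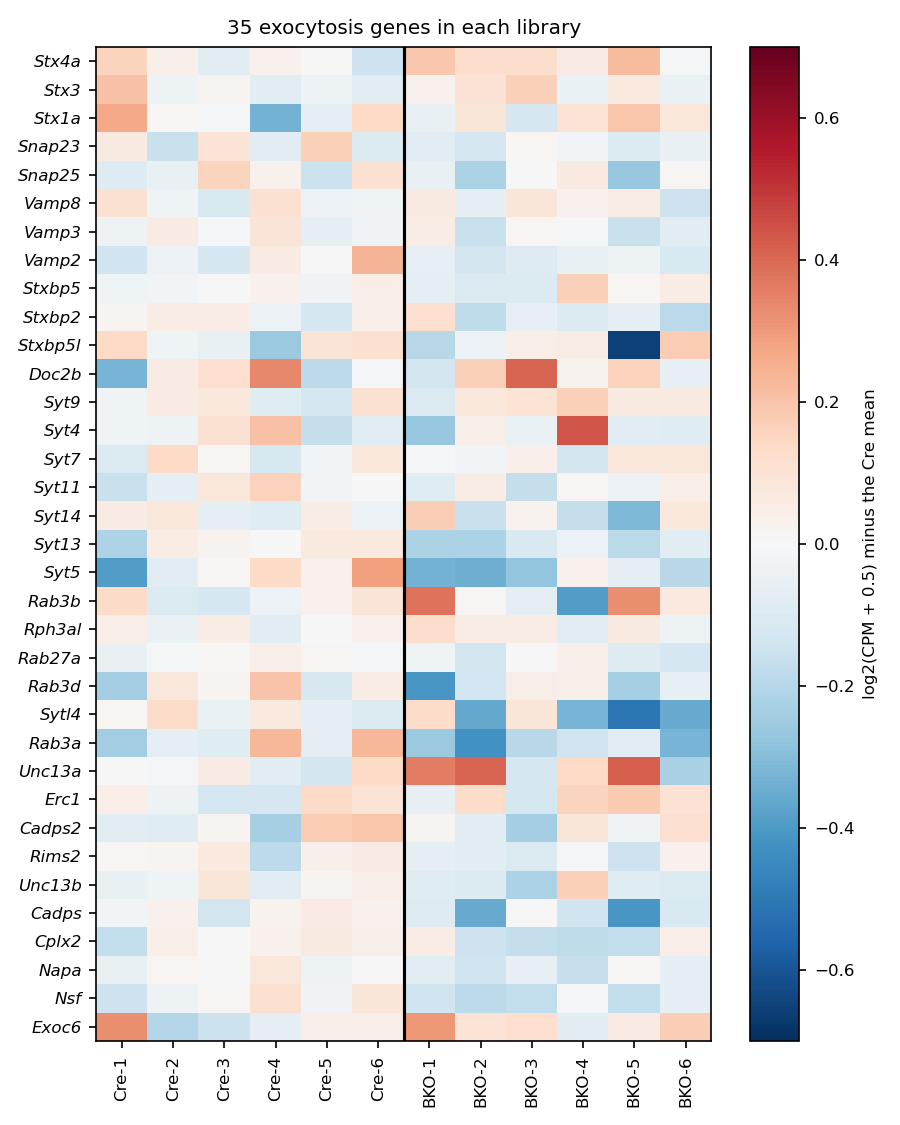
log2(CPM + 0.5) of the 35 tested exocytosis genes (rows, by role) in each library (columns), minus the Cre mean of the gene. BKO-5 is lowest in Stxbp5l and Sytl4, and BKO-4 is highest in Syt4.

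Other genes of the exocytosis pathway, 86 in a list that shares none with the 37, were compared in the same fit. Of these 77 were tested, 0 passed after adjustment, and 8 were lower (10.4%) and 2 higher (2.60%) at an unadjusted p under 0.05, against the 4.66% and 8.7% of all genes given above. Their median log2 fold change was -0.021, and 47 of 77 were negative (61.0%). None of the 20 other SNAREs tested was at an unadjusted p under 0.05, with fold changes between -0.10 and 0.13. The 2 higher genes were expressed at low levels. Rab27b, a relative of Rab27a, was between 2.70 and 6.21 CPM in BKO and between 2.30 and 4.21 CPM in Cre (log2 fold change 0.67 ± 0.20, adjusted p = 0.184 by edgeR). Syt1, the calcium sensor of neurons, was between 4.61 and 8.78 CPM in BKO and between 3.44 and 5.58 CPM in Cre (0.48 ± 0.17, adjusted p = 0.222 by edgeR). The lower ones included Esyt1, a tether between the endoplasmic reticulum and the plasma membrane, at 221 ± 20.5 CPM (BKO) against 251 ± 19.3 CPM (Cre) (-0.18 ± 0.066). The Rab27 effector Sytl1 was at 26.2 ± 4.89 and 31.9 ± 2.65 CPM (-0.28 ± 0.10). The RIM family member Rims3 was at 32.0 ± 3.42 and 36.2 ± 1.89 CPM (-0.18 ± 0.071). Pclo, the scaffold piccolo, was between 224 and 293 CPM in BKO and between 271 and 315 CPM in Cre (-0.16 ± 0.065). Exoc1, an exocyst subunit, was at 38.7 ± 1.42 and 42.3 ± 2.59 CPM (-0.13 ± 0.056). Without BKO-4, 4 of the other pathway genes passed edgeR's test, in a fit that called 250 genes (1.83% of those tested). They were the rabphilin gene Rph3a (-1.74, adjusted p = 0.00460), Sytl1 (-0.38, adjusted p = 0.0387), Rab27b (0.79, adjusted p = 0.0400) and Myo5a. In the fit without both BKO-4 and Cre-1, 8 passed, namely these 4 with Rph3a at -1.79 (adjusted p = 0.00425), and Esyt1, Madd, Rims3 and Syt10.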

How the data were processed

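The authors deposited raw read counts per gene symbol, 1 file per library, with 5 htseq-count summary lines, which name no gene and held 34.7% to 45.8% of all counted reads. HISAT2 2.0.5, HTSeq and mm10 are named in the submitters' processing notes. The labels name no annotation, HTSeq version or strand setting. The deposited series-wide table was not used. Counts of 6 BKO and 6 Cre libraries were tested with edgeR 4.0.16 (R 4.3.3): filterByExpr, TMM scaling, then glmQLFit (robust) and glmQLFTest without covariates, with p-values adjusted by Benjamini-Hochberg across the 13583 genes and a threshold of 0.05. Standard errors come from that test. The biological coefficient of variation was 11.7%, and no pair of libraries within a group was alike within counting noise (chi-square over its degrees of freedom 5.07 to 30.2). Marker lists were compared by their mean log2(CPM + 0.5), genes below the filter included, with exact two-sided permutation tests over all 924 splits (smallest p 0.00216). A gene at 3 reads stood at 0.238 to 0.283 CPM. Lengths and coordinates come from GENCODE M21 (GRCm38, that is mm10). All 37 members matched 1 gene, 8 of them with exons overlapping a gene on the opposite strand and 1 (Rab27a) on the same strand. Alternatives were RLE, upper-quartile and acinar-free scaling, other count filters, DESeq2 1.42.0, limma-voom (limma 3.58.1) with quality weights, the replicate number as a block, edgeR without the robust option, a threshold of 0.1, each library left out and, added after seeing the data, BKO-4 and Cre-1 both left out. The fitting was tested on simulated data, but how often it would find differences as small as those of the members is not given here. Members and gene lists were chosen with earlier results of these data known. Fold changes are given for members at an unadjusted p under 0.05, the smallest p in each role, and others where a range needed it. Of the other pathway genes, at most 2 per list with the smallest p under 0.05 are described. Rph3a, and those named because they passed when libraries were left out or to describe a list, were chosen after their values were seen.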

Additional observations from a re-analysis of the deposited data

Results flagged for a closer look

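In 6 of the 70 groups of 6 libraries examined (35 genes in 2 genotypes), 1 library stood far from the rest by Dixon's test, which chance alone flags in about 1 of 20 groups. Cre-1 accounted for 3 of them: it was high in Stx3 (92.4 CPM, the next Cre library 81.3) and low in Syt13 (1034 CPM, next 1198) and Cplx2 (607 CPM, next 682). BKO-4 was high in Syt4 (480 CPM, next 363) and Unc13b (90.4 CPM, next 76.0). Cre-4 was low in Rims2 (46.7 CPM, next 53.5).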

How the results depend on the processing

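No member passed after adjustment with all 12 libraries or with 1 left out. At a threshold of 0.1 no member and no other gene passed with all 12. Rab3a and Syt13 were under 0.1 without Cre-1 (adjusted p = 0.0984 and 0.0850 by edgeR). The share of all genes under 0.1 in that fit is not given here, so these members cannot be set against it. With BKO-4 and Cre-1 both left out, a choice made after seeing the data and from the values of those libraries, 4 members passed (Rab3a, Syt5, Syt13 and Nsf) among 532 genes, 10 members were lower and 2 higher at an unadjusted p under 0.05 (10.9% and 10.1% of all genes), the median was -0.088, Syt4 was -0.11 and Syt7 -0.0064. Over all genes edgeR called 0, DESeq2 223, and the fit with the replicate block 364, and between 0 and 250 with 1 library left out (250 without BKO-4, 110 without Cre-5, 6 without Cre-1, 5 without BKO-3). The members' median stayed between -0.074 and -0.043 with 1 library left out, the lower members at an unadjusted p under 0.05 numbered 3 (without Cre-4) to 9 (without Cre-1), and the higher ones 0 to 2 (2 without Cre-1, 1 each without BKO-3 and BKO-6, Unc13a in both). Over all genes, 9.08% were higher at that p without BKO-3 and 7.31% without BKO-6. With the replicate block 7 members were lower, against 6.15% of all genes in that fit. Same-numbered libraries had correlations of -0.079 to 0.28 between their deviations from the group means. As not every pair was above 0.1 and the labels give no meaning to the numbers, they were not used as a pairing. That 4 of 6 BKO libraries correlated best with their own number is a hint of one from the data. Members near 0 changed sign: Vamp8 was -0.0073 with RLE, -0.011 with no count filter, -0.0026 with at least 10 reads in every library, -0.0070 with DESeq2 and -0.0019 with limma-voom. Syt7 was -0.0045 with RLE, -0.0080 with no count filter, -0.0046 with DESeq2 and -0.0074 with limma-voom. Stxbp5 was 0.0017 with upper-quartile scaling and 0.00071 with limma-voom. With 1 library left out the ranges were -0.033 to 0.016 (Vamp8), -0.031 to 0.031 (Syt7), -0.040 to 0.015 (Stxbp5), -0.088 to 0.058 (Syt4), -0.029 to 0.080 (Stx1a), -0.0059 to 0.15 (Rab3b) and -0.079 to 0.016 (Cadps2). The cause was not tested. Depth limits Rims1 and Cplx1, for which a difference was not detectable.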

Other observations

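Rph3a, rabphilin, an effector of Rab3 and Rab27 and a gene of the wider pathway list, was singled out after its values were seen. It was between 2.41 and 6.47 CPM in 5 of the BKO libraries and between 11.3 and 21.2 CPM in Cre, with no overlap between those 5 and the Cre group. BKO-4, at 21.7 CPM, stood above every Cre library. The log2 difference was -1.07 ± 0.44 (SE; adjusted p = 0.331 by edgeR over all genes). Without BKO-4 it was -1.74 (adjusted p = 0.00460), a fit in which 250 genes passed, and over the alternatives with all 12 libraries or 1 other library left out its adjusted p was between 0.116 and 0.545. With BKO-4 and Cre-1 both left out, chosen after seeing the data, it was -1.79 (adjusted p = 0.00425). Among the tested members BKO-4 was above the Cre range in Syt4, Stxbp5, Syt9, Unc13b and Erc1. This was not particular to BKO-4. BKO-1 was above it in Stx4a, Stxbp2, Syt14, Rab3b, Rph3al and Unc13a, and BKO-5 in Stx4a, Rab3b, Rph3al, Unc13a and Erc1.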
